A study of Mus musculus with 12 samples.

Results

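Chondrocytes of Phlpp2 knockout (KO) mice were compared with chondrocytes of wild-type (WT) mice by bulk RNA sequencing. The comparison took every gene of the deposited raw count table that passed a filter on low counts, which left 16565 of 49315 genes, in 6 of the 12 samples of the series. The 6 samples were 3 labelled Phlpp2 KO (Phlpp2-/-) and 3 labelled WT. The other 6 were 3 Phlpp1/2 KO and 3 Phlpp1 KO samples, which entered the same fit and, set against each other, gave the loss of Phlpp2 on a background without Phlpp1. All 4 genotypes were 5-day-old mice labelled female, and all cells were freed from the epiphyses with collagenase, cryopreserved, thawed and kept overnight in culture medium with serum before RNA was taken. The strain label was C57BL6 in WT, Phlpp1 KO and Phlpp2 KO samples, except C57BL7 for Phlpp2 KO 3, and it was C57BL8, C57BL9 and C57BL10 for the Phlpp1/2 KO samples. The labels do not say which part of either gene was deleted, in which cells, or whether a sample was 1 animal or several pooled, so p-values measure the spread between samples, which may be technical.

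PHLPP1 and PHLPP2 are phosphatases with a PH domain and leucine-rich repeats that take a phosphate off the hydrophobic motif of AKT, and they also act on protein kinase C and S6 kinase. AKT passes growth factor signals to protein synthesis, to survival and, by keeping FOXO transcription factors out of the nucleus, to gene expression. In the growth plate, chondrocytes divide, lay down a matrix of type II collagen and aggrecan, then enlarge and mineralise it, and this sequence lengthens the bone.

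Library totals were 26471076 to 30320963 counts in Phlpp2 KO and 21706337 to 27829144 counts in WT, and each count was worth 0.0331 to 0.0452 counts per 1000000 (CPM). The label of the cells held in both groups. Col2a1, the gene of type II collagen, had 27857, 27140 and 33544 CPM in Phlpp2 KO against 26071, 32451 and 40258 CPM in WT. The summed level of 9 chondrocyte markers was 37738 to 46782 CPM in Phlpp2 KO and 36200 to 54289 CPM in WT, and no marker was at 0. The summed level of skeletal muscle markers was 16.4, 22.8 and 9.92 CPM in Phlpp2 KO and 32.7, 143.4 and 27.8 CPM in WT, where WT 2 stood apart. Xist, the RNA of the inactive X chromosome, was high in all 6 libraries and low in Phlpp1/2 KO 1 (3.77 CPM) and Phlpp1 KO 1 (13.9 CPM). Y-linked genes summed to 108.4 CPM in Phlpp1/2 KO 1, against its label female, and to at most 1.22 CPM in the other libraries, Phlpp1 KO 1 included. Without these 2 in the fit the comparison gave 20 calls again, 18 of them the same genes.

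The targeted gene was lower in the knockout but far from absent. Phlpp2 (chromosome 8, 109868542 to 109944671, plus strand, mm10) had 17.1, 16.8 and 19.4 CPM in Phlpp2 KO, against 28.1, 22.4 and 25.8 CPM in WT. Every KO library lay below every WT library, and the mean was 17.8 ± 1.43 CPM in Phlpp2 KO and 25.5 ± 2.85 CPM in WT (SD, n = 3 each). The log2 fold change was -0.52 (SE 0.09), which did not pass the threshold of 0.05 over all tested genes (edgeR's quasi-likelihood test, adjusted p = 0.0607 by Benjamini-Hochberg, unadjusted p = 9.09e-05). DESeq2 called it, with an adjusted p of 0.000621. On the Phlpp1-null background Phlpp2 had 11.1, 10.2 and 11.4 CPM in Phlpp1/2 KO, against 24.9, 22.8 and 24.9 CPM in Phlpp1 KO, and fell by 1.15 on the log2 scale (adjusted p = 0.000304, edgeR). The difference of the 2 changes was -0.63 and was not called (unadjusted p = 0.000389, adjusted p = 0.151, edgeR). Counts over a whole gene include exons outside a deleted part, so these levels do not measure the protein. Phlpp1, the paralog, had 44.6, 37.9 and 41.6 CPM in Phlpp2 KO against 43.8, 35.1 and 40.0 CPM in WT. The groups overlapped (log2 fold change 0.06, adjusted p = 0.809, edgeR).

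**Figure D1:**
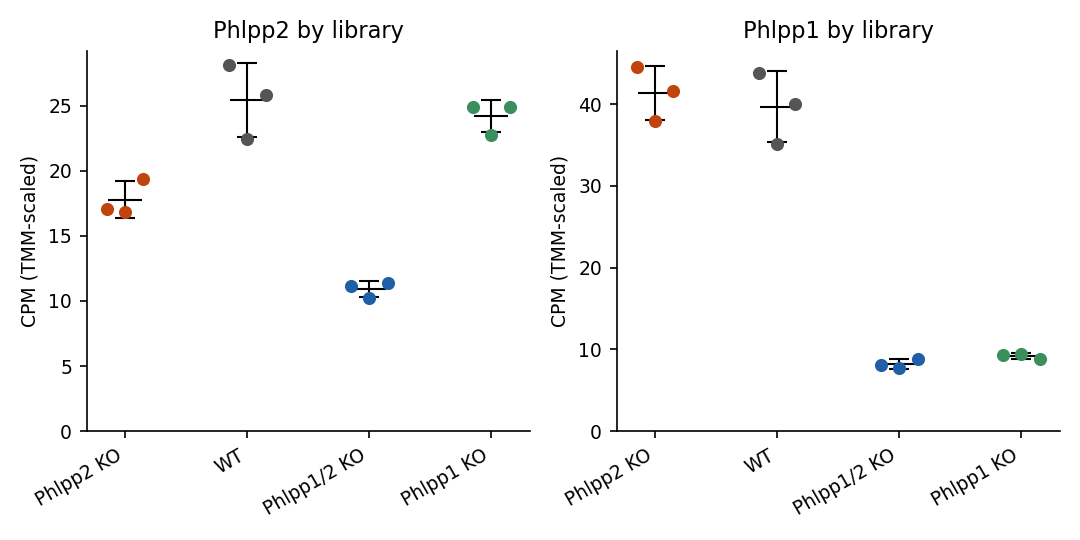
Level of Phlpp2 and Phlpp1 in CPM (vertical axis) in each library of the 4 genotypes, with points for libraries and bars for mean ± SD (n = 3). Phlpp2 is at 16.8 to 19.4 CPM in Phlpp2 KO and at 22.4 to 28.1 CPM in WT, and at 10.2 to 11.4 CPM in Phlpp1/2 KO.

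An adjusted p under 0.05 (a call) was reached by 20 of 16565 tested genes (0.121%), with 10 higher (0.0604%) and 10 lower (0.0604%) in Phlpp2 KO. They were 11 pseudogenes, 2 long intergenic non-coding RNAs and 7 protein-coding genes, namely Rps2, Rnps1, Ska2 and Sox11 (higher) and mt-Nd3, Lypd3 and Dbp (lower). Among all tested genes 13611 were protein-coding and 1326 were pseudogenes. In each of the 20, no library of one genotype overlapped the other, and 12 differed at least 2-fold. Non-overlap alone was common, since 3168 genes (19.1%) had it, 1698 higher (10.3%) and 1470 lower (8.87%) in Phlpp2 KO. An unadjusted p under 0.05 was reached by 2281 genes (13.8%), 1405 higher (8.48%) and 876 lower (5.29%). The median log2 fold change of all tested genes was -0.017.

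Of the 20 called genes, 14 belonged to groups of near-identical copies and 6 did not. Copies were transcripts that match with at least 95% identity over at least 150 bases and over most of the called gene's transcript. Matches to a smaller part of a transcript, such as 28.19% of 2410018L13Rik with Gm49686, did not count. There were 7 such groups. In 1 of them, mt-Nd3, a mitochondrial gene for a subunit of respiratory complex I, and its nuclear pseudogene Gm28438 were both called, in opposite directions. Their sequences show how little separates them. The first 120 of 345 aligned bases of each follow, 5′ to 3′ and in lower case, from the GENCODE transcripts, with the base that differs in capitals (T3C, counted from base 1 of Gm28438). Over all 345 bases that was the only difference.
mt-Nd3: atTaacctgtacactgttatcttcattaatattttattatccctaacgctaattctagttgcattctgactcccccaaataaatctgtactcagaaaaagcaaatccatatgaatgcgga
Gm28438: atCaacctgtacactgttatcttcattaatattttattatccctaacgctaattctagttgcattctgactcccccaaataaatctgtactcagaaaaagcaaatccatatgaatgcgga

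The counts of mt-Nd3 (chromosome M, 9459 to 9806) were 1.48, 1.99 and 1.42 CPM in Phlpp2 KO, against 18.6, 21.3 and 19.2 CPM in WT. Those of Gm28438 (chromosome 1, 24612775 to 24613119, minus strand) were 17.7, 26.1 and 19.6 CPM in Phlpp2 KO, against 2.44, 3.42 and 2.18 CPM in WT. The pair exchanged places, with log2 fold changes of -3.59 (SE 0.17, adjusted p = 1.14e-07) for mt-Nd3 and 2.97 (SE 0.22, adjusted p = 3.82e-05) for Gm28438 (edgeR). Their sum did not differ beyond the spread, at 19.2, 28.1 and 21.0 CPM in Phlpp2 KO against 21.1, 24.7 and 21.4 CPM in WT (log2 fold change 0.04, SE 0.15, adjusted p = 0.940). Of the counts of the pair, mt-Nd3 held 7.74%, 7.06% and 6.76% in Phlpp2 KO, against 88.4%, 86.1% and 89.8% in WT. It held 9.10%, 12.9% and 9.12% in Phlpp1/2 KO and 5.97%, 12% and 10.7% in Phlpp1 KO, so the 3 WT libraries stood apart from the 9 others.

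Rps2, which encodes a protein of the small ribosomal subunit, led the largest group, with 26 genes. Rps2 had 2704, 2851 and 2549 CPM in Phlpp2 KO, against 1573, 1822 and 1616 CPM in WT (log2 fold change 0.69, SE 0.08, adjusted p = 0.00108). Its pseudogene Rps2-ps10, with 99.358% identity over 934 bases, had 17.3, 18.3 and 17.7 CPM in Phlpp2 KO, against 503.9, 608.9 and 518.3 CPM in WT (log2 fold change -4.94, SE 0.15, adjusted p = 6.83e-09, edgeR). Rps2 held 98.5%, 98.6% and 98.4% of the counts of the group in Phlpp2 KO, against 74.6%, 73.9% and 74.6% in WT. The group as a whole had 2744, 2892 and 2589 CPM in Phlpp2 KO, against 2107, 2466 and 2166 CPM in WT. Those sums did not overlap, and their log2 fold change was 0.30 (SE 0.08), which was not called (adjusted p = 0.186). Among 28 tested genes for cytosolic ribosomal proteins, Rps2 was the only one called, and the median of the list was -0.0041, close to that of all tested genes. The pseudogenes Rps2-ps13, Gm6139, Gm6433 and Gm12366 of the same group were the other called members, all lower in Phlpp2 KO, with log2 fold changes of -0.91, -2.22, -3.34 and -1.83.

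Rnps1 encodes a component of the exon junction complex that takes part in splicing. It had 147.0, 144.3 and 139.4 CPM in Phlpp2 KO, against 111.5, 110.0 and 111.7 CPM in WT (log2 fold change 0.37, SE 0.05, adjusted p = 0.00639). Its copy Gm9825 had 2.03, 1.79 and 2.26 CPM in Phlpp2 KO, against 16.7, 16.2 and 15.8 CPM in WT (log2 fold change -3.0, adjusted p = 1e-07, edgeR). Summed, the pair had 149.0, 146.1 and 141.7 CPM in Phlpp2 KO, against 128.3, 126.2 and 127.5 CPM in WT (log2 fold change 0.21, SE 0.05, adjusted p = 0.186). The copies differ at 5 of 843 bases (C171A, C260T, T489C, T510C and C684T, counted from base 1 of Gm9825, with the base of Rnps1 written before the position). Bases 131 to 250 of the match follow, with the base of C171A in capitals. Rnps1 lies on chromosome 17 (24414565 to 24425901, plus strand) and Gm9825 on chromosome 6 (7982541 to 7983383, minus strand).
Rnps1: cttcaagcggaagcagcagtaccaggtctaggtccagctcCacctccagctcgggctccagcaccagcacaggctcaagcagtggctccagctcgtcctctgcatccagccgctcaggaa
Gm9825: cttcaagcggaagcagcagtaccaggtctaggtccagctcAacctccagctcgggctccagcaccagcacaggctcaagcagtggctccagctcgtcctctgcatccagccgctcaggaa

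The other called copies were Gm10222, Gm28437, Gm13340 and Gm17709. Gm10222, Gm28438 and Gm28437 lie next to one another on chromosome 1, between 24612407 and 24613971. They were the 3 called of 28 genes tested there between 20 and 30 Mb, against 0.121% called of all tested genes. Gm10222 matches mt-Nd4l without a difference over 294 bases and Gm28437 matches mt-Co3 without a difference over 783 bases. Gm10222 took 57.1%, 65.4% and 60.4% of the counts of its pair in Phlpp2 KO, against 19.5%, 21.6% and 20.3% in WT. Gm28437 took 59.9%, 64.8% and 60.0% in Phlpp2 KO, against 37.8%, 39.2% and 36.0% in WT. The sums of both pairs were not called, with log2 fold changes of 0.28 (adjusted p = 0.408) and 0.27 (adjusted p = 0.220). Gm13340 was different in kind, since it held 1.05%, 0.881% and 0.927% of its pair with mt-Co1 in Phlpp2 KO and 0.911%, 0.805% and 0.897% in WT, and it moved with mt-Co1 rather than against it. The sources used here give neither the strand setting, nor the annotation, nor how reads with several matches were counted. Their part in these shares was not tested.

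**Figure D2:**
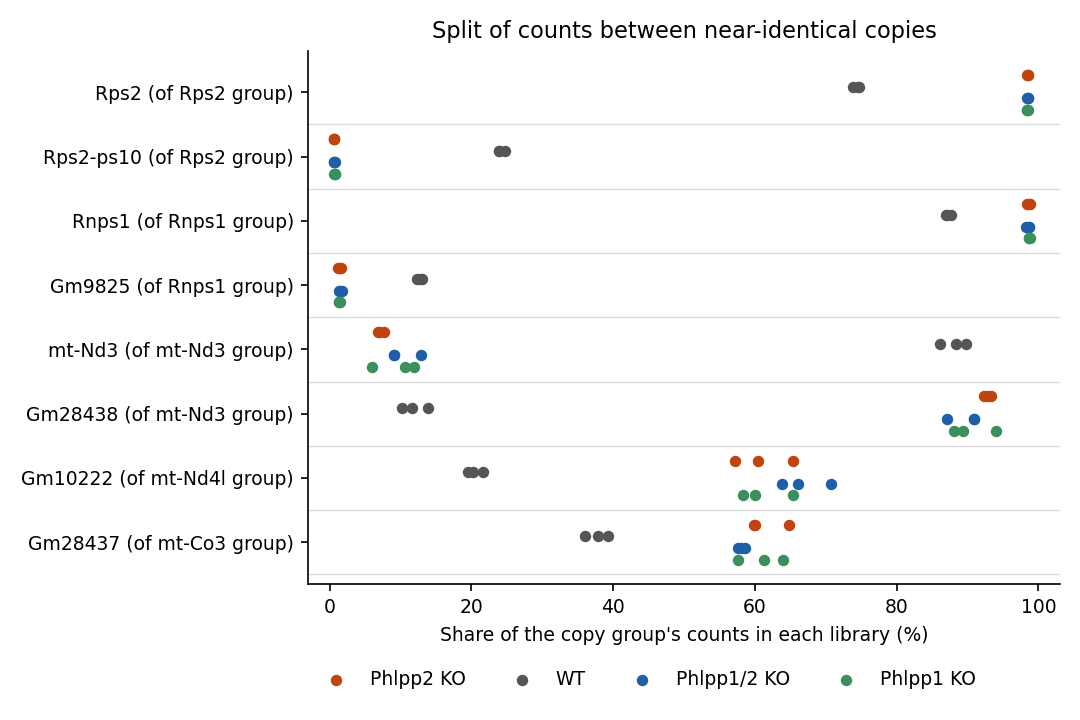
Share of the counts of a group of near-identical copies (percent, horizontal axis) held by 8 genes (rows) in each library of the 4 genotypes, with points for libraries. For mt-Nd3 the Phlpp2 KO libraries are at 6.76% to 7.74% and the WT libraries at 86.1% to 89.8%, and in each row WT lies away from the other genotypes.

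Counts were also summed within each group of copies before the test, an alternative chosen after seeing the data, which left 16538 rows. Groups were built around called genes alone. Copies without a called member, such as mt-Co2 and Gm28661, were therefore not summed. With the copies summed, edgeR called 0 rows between Phlpp2 KO and WT, where 2208 had an unadjusted p under 0.05 (1542 higher and 666 lower), and the smallest adjusted p was 0.127. That value was shared by Lypd3, Ska2, Sox11, Dbp, Gm4425 and 2410018L13Rik, the 6 called genes outside the copy groups. Genes that had not been called shared it too, Efcab7, Zfp982 and Kif15 among them. The estimates of the 6 hardly moved, with log2 fold changes after summing of -1.97, 0.54, 0.69, -0.59, 2.60 and -3.22. The adjustment ranks all p-values together, so the removal of the 14 copies by itself raised the adjusted p of the genes ranked after them.

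Sox11 is a SoxC transcription factor of embryonic progenitors, and the wider SOX family, outside SoxC, holds the chondrocyte factors Sox5, Sox6 and Sox9. Sox11 (chromosome 12, 27334264 to 27342574, minus strand) had 30.8, 30.7 and 30.8 CPM in Phlpp2 KO, against 22.8, 16.5 and 18.6 CPM in WT. The KO libraries were nearly equal and all lay above WT, with means of 30.8 ± 0.0433 CPM in Phlpp2 KO and 19.3 ± 3.17 CPM in WT (SD, n = 3 each). The log2 fold change was 0.68 (SE 0.12, adjusted p = 0.0496, edgeR). Without Phlpp1 it had 31.0, 34.5 and 34.7 CPM in Phlpp1/2 KO, against 27.6, 20.9 and 24.6 CPM in Phlpp1 KO, again without overlap (log2 fold change 0.45, unadjusted p = 0.00144, not called). The 2 changes did not differ beyond their error (unadjusted p = 0.190 for the difference, edgeR). Of the 13 SOX genes tested, Sox11 was the only one called, and 6 were higher and 7 lower in Phlpp2 KO. Sox9, the master factor of chondrocytes, had 215.3, 406.2 and 376.8 CPM in Phlpp2 KO against 349.9, 387.1 and 407.5 CPM in WT, with overlap.

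Ska2 encodes a subunit of the SKA complex, which holds kinetochores to spindle microtubules in mitosis. Ska2 (chromosome 11, 87109234 to 87124635, plus strand) had 40.6, 39.5 and 44.6 CPM in Phlpp2 KO, against 28.9, 29.7 and 27.8 CPM in WT. Every KO library lay above every WT library, with means of 41.5 ± 2.69 CPM in Phlpp2 KO and 28.8 ± 0.936 CPM in WT (SD, n = 3 each; log2 fold change 0.53, SE 0.09, adjusted p = 0.0367, edgeR). In the other genotypes Ska2 had 37.2, 35.1 and 42.3 CPM in Phlpp1/2 KO and 44.7, 37.6 and 40.5 CPM in Phlpp1 KO, so that WT was the low group. A pseudogene matches 11.8% of the transcript with 97.2% identity, and a non-coding gene on the opposite strand covers 10.1% of its exon bases.

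Lypd3 encodes a GPI-anchored surface protein of stratified epithelia that carries LY6/PLAUR domains. Lypd3 (chromosome 7, 24636550 to 24641118, plus strand) had 1.41, 3.34 and 2.61 CPM in Phlpp2 KO, against 10.8, 9.66 and 8.79 CPM in WT. The highest KO library lay far below the lowest WT library, and the log2 fold change was -1.98 (SE 0.28, adjusted p = 0.0190, edgeR). Lypd3 had 4.38, 2.11 and 3.90 CPM in Phlpp1/2 KO against 5.62, 4.96 and 4.62 CPM in Phlpp1 KO, again without overlap (log2 fold change -0.55, unadjusted p = 0.0688). Markers of keratinocytes moved beside it: 7 of 8 tested were lower in Phlpp2 KO, 4 of them with an unadjusted p under 0.05, with a median of -0.36. Of all tested genes 5.29% were lower at that level. The summed level of the markers was 60.4, 55.9 and 64.2 CPM in Phlpp2 KO against 82.8, 74.5 and 69.5 CPM in WT. In bulk RNA, fewer cells of a type and less RNA per cell cannot be told apart. The part of these markers in the change of Lypd3 was not tested.

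Dbp is a PAR bZIP transcription factor and a direct output of the circadian clock. Dbp (chromosome 7, 45705088 to 45710203, plus strand) had 15.6, 18.2 and 16.6 CPM in Phlpp2 KO, against 21.4, 26.5 and 28.6 CPM in WT. The groups did not overlap, and the means were 16.8 ± 1.28 CPM in Phlpp2 KO and 25.5 ± 3.74 CPM in WT (SD, n = 3 each). That is a log2 fold change of -0.60 (SE 0.10), which edgeR called (adjusted p = 0.0496). Dbp was also low in Phlpp1/2 KO, at 16.2, 14.6 and 15.5 CPM, and in Phlpp1 KO, at 17.8, 16 and 16.4 CPM. The gene shares 18.0% of its exon bases with Sphk2 on the opposite strand, and by the name of its kit the library did not mark strand. Sphk2, a sphingosine kinase, had 27.1, 29.9 and 26.1 CPM in Phlpp2 KO against 32.5, 31.2 and 34.5 CPM in WT (log2 fold change -0.24, adjusted p = 0.237, edgeR), so reads of the 2 genes cannot be told apart where they overlap.

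**Figure D3:**
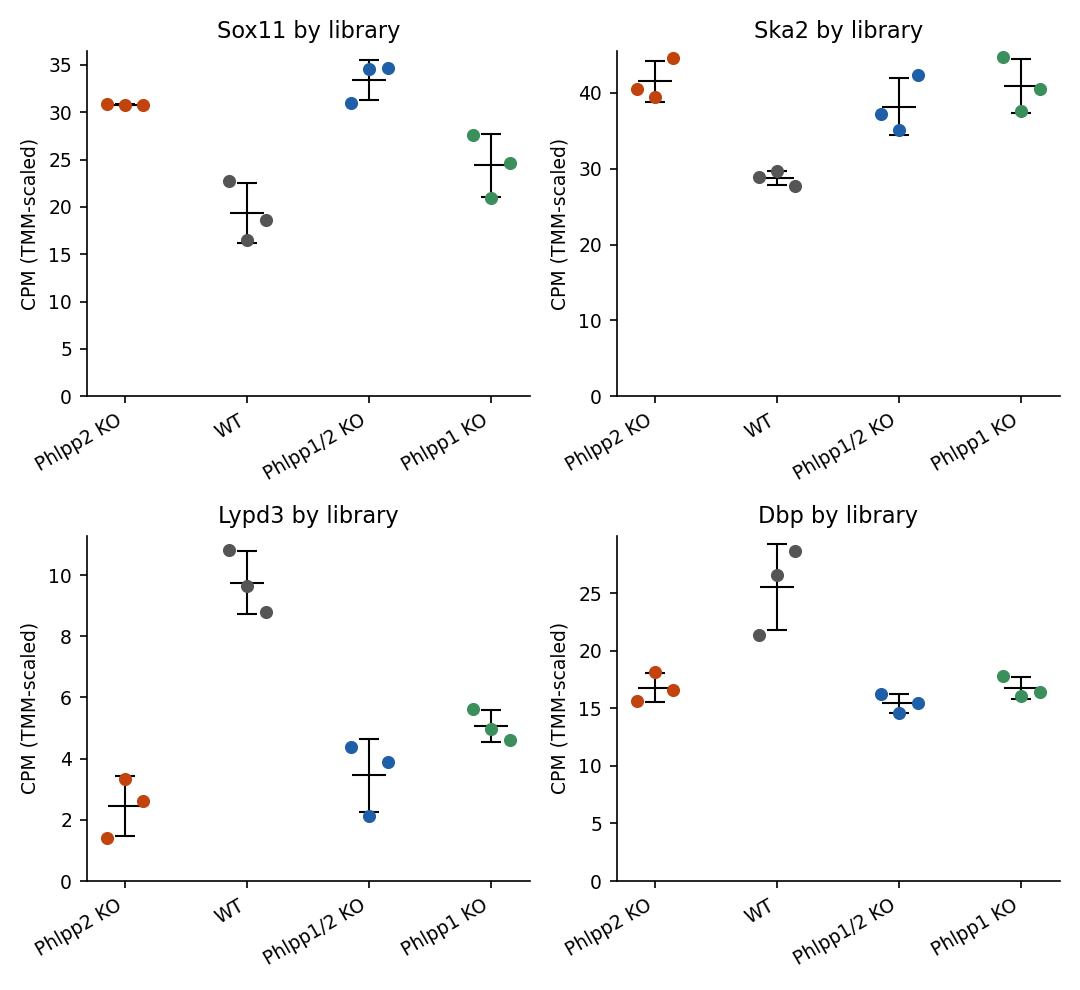
Level in CPM (vertical axis) of Sox11, Ska2, Lypd3 and Dbp in each library of the 4 genotypes, with points for libraries and bars for mean ± SD (n = 3). Sox11 and Ska2 are higher and Lypd3 and Dbp lower in Phlpp2 KO than in WT without overlap, and for Ska2 the WT libraries, at 27.8 to 29.7 CPM, lie below the 9 other libraries.

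The calls of these genes depended on single libraries. Leaving out each of the 6 samples in turn kept Lypd3 called in 2 of 6 fits and Ska2, Sox11 and Dbp in 1 of 6 each. The total fell to 9 calls without Phlpp2 KO 3, to 9 without WT 2 and to 12 without WT 3. Rps2-ps10, Gm9825, mt-Nd3, Gm28438, Gm10222, Gm28437, Rps2, Gm6139 and Rnps1 were called in 6 of 6.

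Both called lincRNAs lay on the chromosome of Sox11. Gm4425 (chromosome 12, 22115756 to 22156646) had 0.760, 0.794 and 0.882 CPM in Phlpp2 KO, against 0.181, 0.180 and 0.0382 CPM in WT (log2 fold change 2.58, adjusted p = 0.0384). 2410018L13Rik (chromosome 12, 22953997 to 23010284) had 0.289, 0.364 and 0.307 CPM in Phlpp2 KO, against 3.03, 2.88 and 3.25 CPM in WT (log2 fold change -3.23, adjusted p = 0.0496, edgeR). Unlike most called genes, 2410018L13Rik had Phlpp1 KO libraries at the WT level, at 3.06, 2.99 and 3.33 CPM, and scattered Phlpp1/2 KO libraries, at 2.93, 0.459 and 1.77 CPM. 2410018L13Rik shares 32.65% of its exon bases with Gm49686 on the same strand. It also matches 3110053B16Rik, a nearby gene with an unadjusted p of 0.000604 (edgeR), over 21.96% of its transcript. Gm4425 has partial matches in 8 genes, such as Gm20472 over 14.56% of its transcript. Of 38 genes tested between 20 and 30 Mb of chromosome 12, 3 were called and 7 had an unadjusted p under 0.001 (edgeR). Of all tested genes 0.121% were called, and their share under 0.001 was not counted. Chromosome 17 between 20 and 30 Mb also had 7 genes under 0.001, among 195 tested, and 2 were called. One of the 7 genes on chromosome 12, named after its values were seen, was the transcript 1700030C10Rik. It had 0, 0 and 0.0383 CPM in Phlpp2 KO, against 2.31, 1.59 and 1.61 CPM in WT. It spread from 0.0918 to 1.48 CPM in Phlpp1/2 KO and from 0.875 to 2.2 CPM in Phlpp1 KO. The window was chosen after the calls were seen.

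Odc1, which encodes the rate-limiting enzyme of polyamine synthesis and lies on the same chromosome at 17544794 to 17551505, had 466.7, 364.9 and 369.8 CPM in Phlpp2 KO, against 574.2, 571.2 and 546.1 CPM in WT. The groups did not overlap, and the change was not called (log2 fold change -0.49, adjusted p = 0.180, edgeR). Its copy Gm17709, which lies on chromosome 8 at 12.1 Mb from Phlpp2, had 6.11, 4.0 and 5.21 CPM in Phlpp2 KO, against 1.31, 1.26 and 0.994 CPM in WT (log2 fold change 2.1, adjusted p = 0.0496). In Phlpp1/2 KO, Gm17709 had 1.51, 4.8 and 3.22 CPM, against 1.68, 1.51 and 1.41 CPM in Phlpp1 KO. Gm17709 was the only call within 20 Mb of Phlpp2, among 344 other tested genes. Of those 344, 41 had an unadjusted p under 0.05 (11.9%, against 13.8% of all tested genes). Ciapin1, a gene of cytosolic iron-sulphur cluster assembly 15.1 Mb from Phlpp2, had 87.2, 80.8 and 81.7 CPM in Phlpp2 KO against 62.6, 67.7 and 72.0 CPM in WT (log2 fold change 0.30, adjusted p = 0.180). It was called on the Phlpp1-null background, at 115.2, 122.4 and 105.3 CPM in Phlpp1/2 KO against 72.6, 74.4 and 65.9 CPM in Phlpp1 KO (log2 fold change 0.69, adjusted p = 0.0028, edgeR).

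Just outside the threshold stood 16 protein-coding genes, with adjusted p from 0.0525 to 0.132 (edgeR), Phlpp2 among them. They had the smallest p-values of uncalled genes without overlap between genotypes and with at least 1 CPM in the higher group. Efcab7, a ciliary gene that bears on Hedgehog signalling, had 7.16, 6.65 and 7.51 CPM in Phlpp2 KO, against 4.57, 2.88 and 2.83 CPM in WT (log2 fold change 1.06, adjusted p = 0.0525). Kif15, a kinesin of the mitotic spindle, had 28.4, 33.2 and 40.0 CPM in Phlpp2 KO, against 21.3, 20.7 and 17.9 CPM in WT (0.76, adjusted p = 0.0525). The kinesin Kif18a had 8.25, 7.97 and 12.7 CPM in Phlpp2 KO, against 5.30, 3.71 and 4.32 CPM in WT (1.12). Sgol2a, a protector of centromeric cohesion, differed by 0.93 and shares 35.0% of its exon bases with Kctd18 on the opposite strand. By that choice the 2 genotypes did not overlap in any of these genes.

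Itgb4, which encodes an integrin subunit of epithelial adhesion, had 10.4, 12.9 and 12.2 CPM in Phlpp2 KO, against 28.3, 18.9 and 23.0 CPM in WT (log2 fold change -0.98, adjusted p = 0.0665). It was lower, as Lypd3 was. Lepr, the leptin receptor gene, had 10.4, 8.11 and 11.9 CPM in Phlpp2 KO, against 5.88, 5.12 and 5.43 CPM in WT (0.89). Ndrg4, of the NDRG family, had 14.7, 13.5 and 15.1 CPM in Phlpp2 KO against 19.5, 18.3 and 18.9 CPM in WT (-0.39). Ndrg4 was lower without Phlpp1 too, at 11.9, 11.8 and 12.1 CPM in Phlpp1/2 KO against 17, 17.8 and 15.5 CPM in Phlpp1 KO (-0.49, unadjusted p = 2.89e-05, edgeR, not called).

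Genes of mitosis were the list that sat highest in Phlpp2 KO among the cell cycle lists. All 34 tested members had a positive log2 fold change, against 46.1% of all tested genes. Of them, 1 (Ska2) was called by edgeR and 12 by DESeq2, 20 had an unadjusted p under 0.05 and 13 did not overlap between the groups. Among all tested genes, 8.48% were higher at that level and 10.3% were higher without overlap. The median of the mitosis genes was 0.49 and the range 0.24 to 1.28, against a median of -0.017 over all tested genes. Cenpf, a kinetochore protein, had 35.4, 43.3 and 69.1 CPM in Phlpp2 KO, against 22.8, 19.3 and 18.7 CPM in WT (log2 fold change 1.28). Cenpe, the kinetochore motor, had 40.1, 40.9 and 69.7 CPM in Phlpp2 KO, against 23.7, 19.0 and 21.8 CPM in WT (1.22, adjusted p = 0.144, edgeR). Hmmr, which encodes a spindle-associated hyaluronan receptor, had 32.6, 47.3 and 56.4 CPM in Phlpp2 KO, against 25.6, 28 and 23.6 CPM in WT (0.82). For these genes KO 3 was the highest library and all KO libraries exceeded all WT libraries.

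The libraries of the knockout were not alike in these genes. Relative to the WT mean, the median of the 34 genes was 0.018, 0.58 and 0.75 (log2) in Phlpp2 KO 1, 2 and 3, against 0.013, 0.13 and -0.17 in WT 1, 2 and 3. The summed level was 1783, 2503 and 2987 CPM in Phlpp2 KO, against 1709, 1833 and 1482 CPM in WT, so KO 1 lay within the WT range. Without KO 3 the median was 0.33 and 14 genes had an unadjusted p under 0.05, and without KO 1 it was 0.67 with 34 genes. Without WT 3 it was 0.40 with 14 genes. Plk1 (0.33), Aurkb (0.24) and Cdc20 (0.30), named after their values were seen, overlapped between the groups. DNA replication genes had a median of 0.02 (13 of 18 higher, 0 called by edgeR or DESeq2, 5 with an unadjusted p under 0.05). G1/S genes had one of -0.011 (8 of 16 higher, 0 called by either, 3 with an unadjusted p under 0.05). At that level stood 13.8% of all tested genes. The mitosis median on the Phlpp1-null background was 0.15. In Phlpp1 KO against WT, which shares the WT libraries, it was 0.31.

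Promoters of these genes often carry CHR elements (TTTGAA) and CCAAT boxes, through which the MuvB and NF-Y complexes are known to act. In RefSeq promoter windows (GRCm38.p6, 250 bases before to 50 after a start), TTTGAA on either strand was found in 21 of 28 mitosis genes with a window (75.0%), against 14.3% of 11160 tested genes with one. For DNA replication and G1/S genes the shares were 6.67% and 9.09%. CCAAT on either strand was found in 78.6% of mitosis genes, 73.3% of DNA replication genes and 42.4% of tested genes. The windows of Cenpf (chr1:189688037-189688336, minus strand) and Hmmr (chr11:40733388-40733687, minus strand), which hold 1 TTTGAA each, are shown 5′ to 3′ with both motifs in capitals, as CCAAT or as its reverse complement ATTGG. A match is a description of these letters.
Cenpf: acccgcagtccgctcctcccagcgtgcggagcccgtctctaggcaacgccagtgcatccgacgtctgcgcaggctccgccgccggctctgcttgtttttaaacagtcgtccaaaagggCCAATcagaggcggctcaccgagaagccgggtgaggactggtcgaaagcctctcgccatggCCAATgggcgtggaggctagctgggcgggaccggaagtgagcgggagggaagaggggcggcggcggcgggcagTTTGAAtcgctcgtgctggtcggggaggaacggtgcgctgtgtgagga
Hmmr: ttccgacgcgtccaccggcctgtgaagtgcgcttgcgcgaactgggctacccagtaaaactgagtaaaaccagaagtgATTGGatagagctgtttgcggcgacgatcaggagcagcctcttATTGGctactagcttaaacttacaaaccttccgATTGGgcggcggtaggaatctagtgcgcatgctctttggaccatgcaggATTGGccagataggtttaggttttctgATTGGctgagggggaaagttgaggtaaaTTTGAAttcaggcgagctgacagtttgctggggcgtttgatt

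The circadian clock is a loop in which CLOCK and BMAL1 switch on their own repressors through E-boxes (CACGTG), and the repressors then switch them off. Dbp was called, and of the 23 clock genes tested 15 were lower in Phlpp2 KO, 8 of them with an unadjusted p under 0.05, and 1 was higher at that level. The median was -0.18, against -0.017 over all tested genes. Among the repressors 9 of 10 were lower, 5 with an unadjusted p under 0.05 and 6 without overlap, with a median of -0.24. Of all tested genes, 5.29% were lower and 8.48% higher at that level, and 8.87% were lower without overlap. Nr1d1, which encodes the repressor REV-ERB alpha, had 52.7, 49.4 and 52.1 CPM in Phlpp2 KO, against 69.5, 64.0 and 76.7 CPM in WT (log2 fold change -0.45, SE 0.08, adjusted p = 0.0690). It shares 8.55% of its exon bases with Thra on the opposite strand. Bhlhe41, a repressor that competes for E-boxes, had 16.7, 18.0 and 17.8 CPM in Phlpp2 KO, against 21.4, 21.6 and 22.8 CPM in WT (-0.33), and shares 19.1% of its exon bases with Gm43909 on the opposite strand. Tef, a PAR bZIP factor like Dbp, had 59.4, 63.4 and 63.5 CPM in Phlpp2 KO, against 72.7, 77.0 and 83.4 CPM in WT (-0.32). In Nr1d1, Bhlhe41 and Tef the highest KO library lay below the lowest WT library, and edgeR called none of them.

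The activator gene Clock went the other way, at 77.1, 59.4 and 80 CPM in Phlpp2 KO against 59.2, 45.5 and 55.5 CPM in WT (0.43, unadjusted p = 0.0246, edgeR), and was named after its values were seen. Arntl, which encodes BMAL1, differed by 0.08. The median of the repressors relative to the WT mean was -0.29, -0.18 and -0.25 in Phlpp2 KO 1, 2 and 3, against -0.03, -0.09 and 0.11 in WT 1, 2 and 3, so the KO libraries were alike here. It was -0.21, -0.23 and -0.22 in Phlpp1/2 KO and -0.12, -0.18 and -0.14 in Phlpp1 KO. The median log2 fold change of the repressors was -0.051 in Phlpp1/2 KO against Phlpp1 KO and -0.16 in Phlpp1 KO against WT, which shares the WT libraries. The labels give no hour at which tissue or cells were taken.

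CACGTG was found in the windows of 5 of 18 clock genes (27.8%) and of 4 of 8 repressors (50%), against 11.5% of tested genes. The windows of Bhlhe41 (chr6:145865371-145865670, minus strand) and Tef (chr15:81811164-81811463, plus strand) are shown as members with the motif, in capitals. The windows of Dbp and Nr1d1 do not hold these letters.
Bhlhe41: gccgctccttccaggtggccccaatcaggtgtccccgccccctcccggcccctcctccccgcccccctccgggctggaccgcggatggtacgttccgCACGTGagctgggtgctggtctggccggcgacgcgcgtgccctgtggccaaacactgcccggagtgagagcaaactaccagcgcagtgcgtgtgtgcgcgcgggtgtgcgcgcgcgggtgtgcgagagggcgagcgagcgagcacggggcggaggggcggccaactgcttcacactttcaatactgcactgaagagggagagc
Tef: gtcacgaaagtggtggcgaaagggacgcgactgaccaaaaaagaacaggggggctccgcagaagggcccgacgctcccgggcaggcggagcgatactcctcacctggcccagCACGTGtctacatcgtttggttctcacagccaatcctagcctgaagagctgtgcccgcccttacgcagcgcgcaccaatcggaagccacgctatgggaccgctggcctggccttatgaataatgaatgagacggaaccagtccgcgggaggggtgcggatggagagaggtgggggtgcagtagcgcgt

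**Figure D4:**
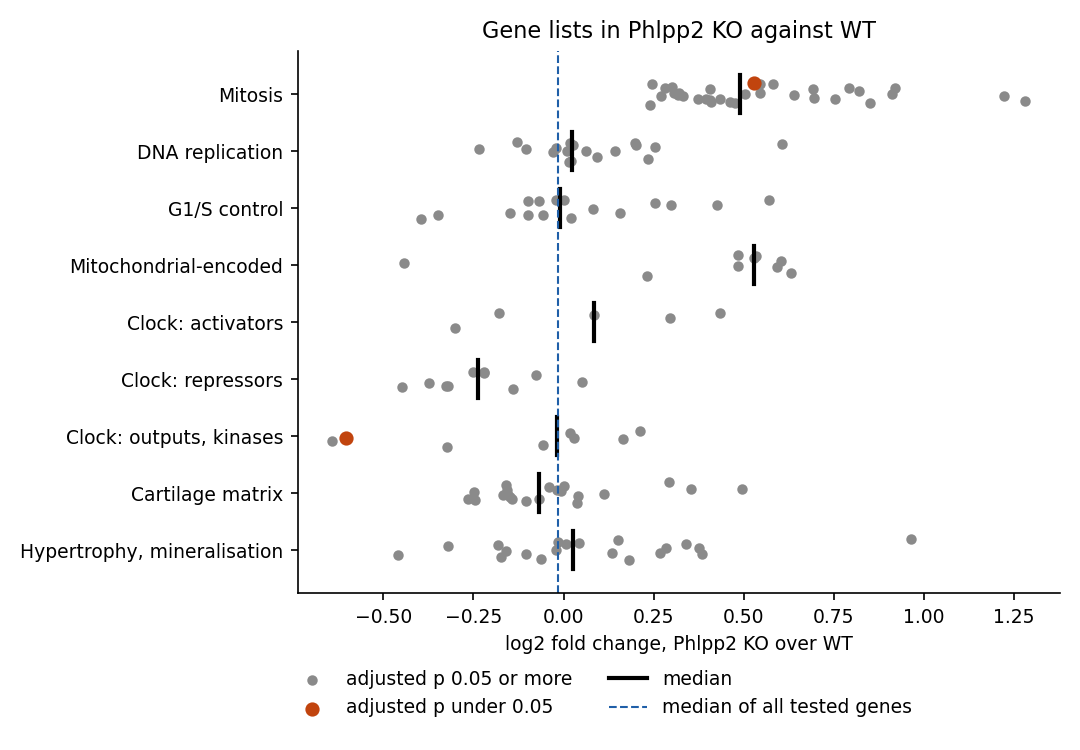
Log2 fold change of Phlpp2 KO over WT (horizontal axis) of each tested member of the gene lists, with called genes in orange, the median of a list as a black bar and the median of all tested genes as a dashed line. The mitosis genes lie between 0.24 and 1.28 with a median of 0.49, and the clock repressors have a median of -0.24.

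Genes of the mitochondrial genome, which encode subunits of the respiratory chain, were mostly higher in Phlpp2 KO. Of 9 tested with mt-Nd3 and mt-Nd4l left aside, 8 were higher, 7 of them without overlap and with an unadjusted p under 0.05, and 0 were called by edgeR (DESeq2 called 7 higher and 1 lower). Among all tested genes, 8.48% were higher with an unadjusted p under 0.05 and 10.3% were higher without overlap. The median of the 9 genes was 0.53. The gene of cytochrome c oxidase subunit I, mt-Co1, had 3436, 3029 and 3820 CPM in Phlpp2 KO, against 2298, 2557 and 2248 CPM in WT (log2 fold change 0.53, SE 0.10, adjusted p = 0.0907). The exception among the 9 was mt-Co3, which has an identical nuclear copy, at 8.86, 8.40 and 8.82 CPM in Phlpp2 KO against 10.7, 12.6 and 12.1 CPM in WT. Summed with its copy Gm28437, mt-Co3 had a log2 fold change of 0.27 (adjusted p = 0.220, edgeR). The gene mt-Co2 matches Gm28661 without a difference over 681 of 684 bases and was higher (0.59). The counts of that pair were not summed. The part of the copies in these changes was not tested. Both genes left aside were lower, mt-Nd3 as given above and mt-Nd4l with a log2 fold change of -0.76 (adjusted p = 0.182, edgeR). The mitochondrial genome took 1.03%, 0.911% and 1.14% of all counts in Phlpp2 KO, against 0.720%, 0.751% and 0.674% in WT. The median was -0.16 in Phlpp1/2 KO against Phlpp1 KO and 0.40 in Phlpp1 KO against WT, which shares the WT libraries. Relative to the WT mean, the median of the list was 0.11, 0.0030 and 0.46 in the Phlpp1/2 KO libraries and 0.20, 0.26 and 0.57 in the Phlpp1 KO libraries.

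Muscle markers were lower in Phlpp2 KO: 13 of 13 tested had a negative log2 fold change, 9 with an unadjusted p under 0.05 and 5 without overlap. Their median was -1.78, and 0 were called by edgeR (DESeq2 called 3). Of all tested genes, 5.29% were lower at an unadjusted p under 0.05 and 8.87% were lower without overlap. Myog, the myogenic factor of differentiating myoblasts, had 1.92, 2.71 and 1.11 CPM in Phlpp2 KO, against 6.16, 30.7 and 5.47 CPM in WT. WT 2 was far above the other WT libraries. Without WT 2 the median was -0.56 and 0 of the 13 had an unadjusted p under 0.05. Macrophage and osteoclast markers were higher in 9 of 12, or 6 of 12 without Phlpp2 KO 1 (median 0.30, sums of 52.4 to 69.4 CPM in Phlpp2 KO and 57.1 to 63.0 CPM in WT) and endothelial markers in 8 of 8 (median 0.31, sums of 9.19 to 15 CPM in Phlpp2 KO and 8.06 to 11.4 CPM in WT). In both lists 0 were called by edgeR or DESeq2, and 2 and 1 had an unadjusted p under 0.05, against 13.8% of all tested genes. Erythroid markers were too low to be tested.

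The cartilage programme itself showed no call by edgeR or DESeq2. Of 21 tested genes of cartilage matrix 14 were lower, with a median of -0.068, and 1 had an unadjusted p under 0.05. That was Epyc, a small proteoglycan of the growth plate, at 104.1, 148.4 and 131.5 CPM in Phlpp2 KO against 83.8, 102 and 86.4 CPM in WT (0.50, adjusted p = 0.318, edgeR). Epyc shares 40.6% of its exon bases with Gm10754 on the opposite strand. Acan, the aggrecan gene, had 2993, 3451 and 3929 CPM in Phlpp2 KO against 3552, 3832 and 4924 CPM in WT, with overlap. The direction of the matrix list rested on single libraries: its median was 0.029, 0.014 and 0.034 without Phlpp2 KO 1, WT 2 and WT 3, and -0.27 without WT 1. Of 20 genes of hypertrophy and mineralisation 0 were called and 3 had an unadjusted p under 0.05, against 13.8% of all tested genes. Their median was 0.026, but -0.043 without Phlpp2 KO 3 and -0.016 without WT 1. Col10a1, the collagen of hypertrophic chondrocytes, ran from 559.3 to 1194 CPM in Phlpp2 KO and from 651.2 to 788.0 CPM in WT. The factor Runx2 was at 39.6 to 54.2 CPM in Phlpp2 KO and at 43.9 to 51.5 CPM in WT. Of 16 Hedgehog and PTHrP genes 15 were lower, but by a median of only -0.11 and with 0 under an unadjusted p of 0.05. Without Phlpp2 KO 1, 9 of the 16 were lower.

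Genes around AKT gave 0 calls among 28, with a median of 0.01, which was -0.012 without Phlpp2 KO 1 and -0.0043 without WT 2. Of them, 5 were higher and 2 lower at an unadjusted p under 0.05 (DESeq2 called 1, Phlpp2 itself). Over all tested genes 8.48% were higher and 5.29% lower at that level. Rps6kb1, which encodes the S6 kinase that PHLPP acts on, had 63.4, 54.8 and 61.6 CPM in Phlpp2 KO, against 51.8, 48.0 and 49.6 CPM in WT (0.27, adjusted p = 0.219). Rptor, which encodes the Raptor subunit of mTORC1, had 101.5, 103.8 and 99.3 CPM in Phlpp2 KO, against 130.0, 104.6 and 124.3 CPM in WT (-0.24, adjusted p = 0.230, edgeR). Among FOXO factors and targets 18 of 23 were lower, 5 with an unadjusted p under 0.05, with 0 called by edgeR or DESeq2 and a median of -0.08. Irs2, an insulin receptor substrate, had 38.9, 39.6 and 37.4 CPM in Phlpp2 KO, against 49.8, 41.5 and 48.3 CPM in WT (-0.27), without overlap. Pik3ip1, an inhibitor of PI3 kinase, had 4.05, 3.51 and 3.41 CPM in Phlpp2 KO, against 5.02, 5.3 and 5.89 CPM in WT (-0.56), without overlap as well. In the TGF-beta and BMP list 4 of 25 had an unadjusted p under 0.05, against 13.8% of all tested genes. Those 4 were higher and were ligands or receptors, and 0 of the list were called by edgeR (DESeq2 called 1, Bmp5). The ligand Bmp5 had 50.4, 42.4 and 56.8 CPM in Phlpp2 KO, against 38.4, 36.4 and 39.7 CPM in WT (0.39). It shares 46.7% of its exon bases with Gm26903 on the opposite strand. Without Phlpp1, Bmp5 was lower, at 33.6, 36.1 and 41.9 CPM in Phlpp1/2 KO against 52.1, 49.8 and 53.3 CPM in Phlpp1 KO (-0.48, unadjusted p = 0.000377). The difference of these changes did not pass the threshold (adjusted p = 0.0667, edgeR).

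Other signalling, stress and immune lists gave 0 calls by edgeR. Their counts at an unadjusted p under 0.05 stand beside 13.8% of all tested genes at that level. Antigen presentation genes were lower in 8 of 12 (median -0.16), with 1 at an unadjusted p under 0.05. This was H2-Ab1, a chain of MHC class II, at 9.51, 11.4 and 11.2 CPM in Phlpp2 KO against 15.4, 15.9 and 16.9 CPM in WT, without overlap (-0.58, adjusted p = 0.179 by edgeR and 0.0110 by DESeq2). Interferon response genes were lower in 17 of 22 (median -0.11, 3 at an unadjusted p under 0.05), a median that became 0.019 without Phlpp2 KO 1 and 0.00052 without WT 2. So were glycolysis and hypoxia genes in 29 of 33 (median -0.085, 2 at that level), but in 17 of 33 without Phlpp2 KO 1, and 13 were at that level without Phlpp2 KO 2. In the FGF and ERK feedback list 3 were higher and 2 lower at that level. Of these, the immediate early gene Fos had 16.8, 16.5 and 19.1 CPM in Phlpp2 KO, against 13.2, 12.6 and 15 CPM in WT, without overlap (0.36, adjusted p = 0.206, edgeR). Adamts12, a matrix protease, had 4.09, 3.87 and 4.68 CPM in Phlpp2 KO, against 2.08, 3.14 and 3.25 CPM in WT (0.57, adjusted p = 0.222, edgeR).

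The contrast of Phlpp1/2 KO with Phlpp1 KO, which shares no library with the comparison of Phlpp2 KO with WT, called 2 of 16565 genes (0.0121%), Phlpp2 and Ciapin1. Of the 20 genes called between Phlpp2 KO and WT, 0 were called there, and 3 had an unadjusted p under 0.05 (7.9% of all tested genes), namely Sox11 (0.45) and Gm17709 (1.05) in the same direction and Rps2-ps13 (0.32) in the opposite one. Of the 10 genes called higher in Phlpp2 KO 7 were also fitted higher there, and of the 10 called lower 5 were also fitted lower. For 18 of the 20, the WT libraries lay outside the range of all 9 other libraries, with 2410018L13Rik and Sox11 as the exceptions. All 20 already had WT apart from Phlpp2 KO, so this count bears on Phlpp1 KO and Phlpp1/2 KO alone. The share of all tested genes with this pattern was not counted. The difference between the 2 changes was called for 8 genes (0.0483%), all of them near-identical copies, and after copies were summed it was called for 0 rows, where 2365 had an unadjusted p under 0.05 (edgeR). DESeq2 on the counts as deposited called 635 genes for that difference.

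**Figure D5:**
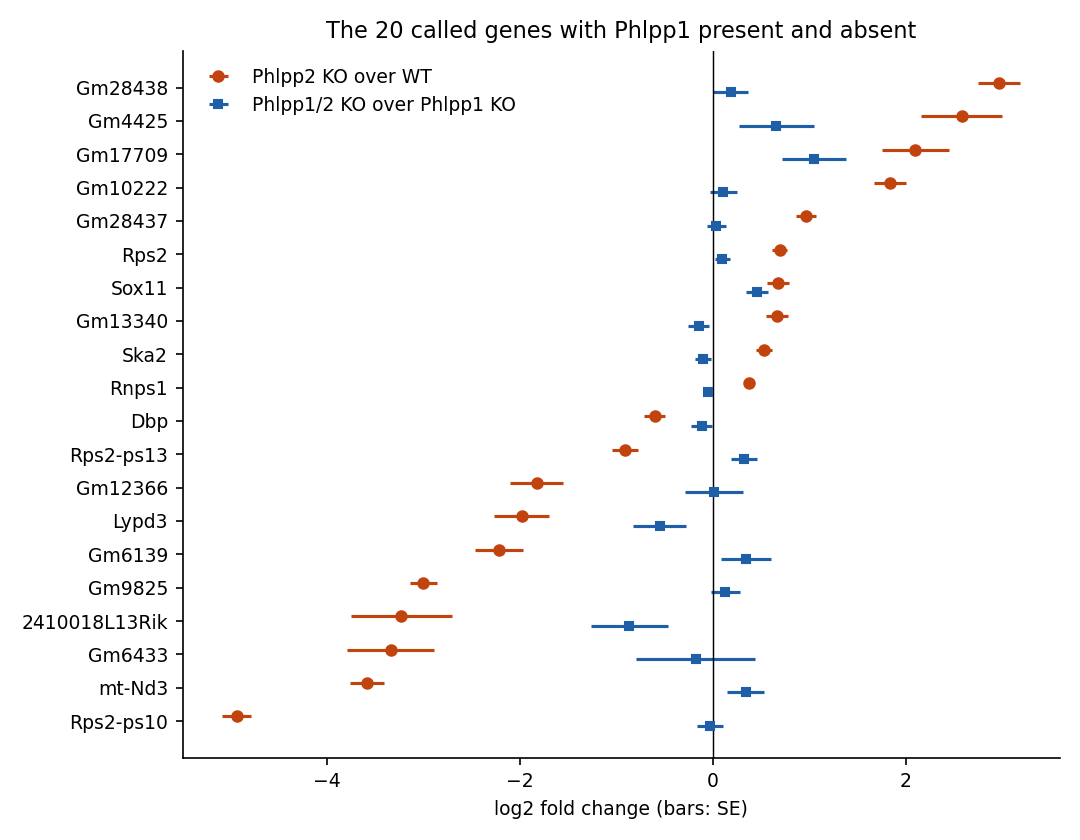
Log2 fold change ± SE of the 20 called genes (rows) in Phlpp2 KO over WT and in Phlpp1/2 KO over Phlpp1 KO (horizontal axis). Sox11 is at 0.68 and 0.45, Lypd3 at -1.98 and -0.55, and the copies with the largest changes against WT, such as Rps2-ps10 at -4.94 and -0.028, are small on the Phlpp1-null background.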

How the data were processed

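RNA of 12 samples, 3 for each of 4 genotypes, was sequenced in bulk. The deposited values were raw counts per gene; the tools, per the submitters' processing notes, were bcl2fastq 2.17, STAR 2.5.2b (build mm10) and featureCounts from Subread 1.5.2. Genes without a symbol (174) held 0.00419% of the counts. Positions came from GENCODE vM21.

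All 12 libraries were fitted with edgeR 4.0.16 (R 4.3.3): its filter on low counts, TMM scaling, genotype as the only term (8 residual degrees of freedom) and its robust quasi-likelihood test. Adjustment over 16565 genes was by Benjamini-Hochberg, and an adjusted p under 0.05 was a call. CPM used TMM-scaled library sizes. SE is the log2 fold change over the square root of F. Tests were checked on simulated data. Alternatives were DESeq2 1.42.0, limma 3.58.1 (voom), other filters and scalings, fewer libraries, a replicate block and summed copies. Copies were found with BLAST+ 2.17.0 among GENCODE transcripts. Promoter sequences came from RefSeq (GRCm38.p6).

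Genes named were the called genes (at most 4 pseudogenes, predicted or Riken genes; further ones were named after their values were seen), 16 uncalled genes with the smallest p and a mean of at least 1 CPM, fixed cartilage genes, and list members with the smallest p. Members and lists were chosen with earlier results of these data known.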

Additional observations from a re-analysis of the deposited data

Results flagged for a closer look

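The change with loss of Phlpp2 differed between the background without Phlpp1 and the background with it for 8 genes, by edgeR's test of that difference, taken as Phlpp1/2 KO minus Phlpp1 KO, less Phlpp2 KO minus WT. All 8 are members of groups of near-identical copies. The log2 difference was 4.91 for Rps2-ps10, 2.57 for Gm6139 and 1.23 for Rps2-ps13, the pseudogenes of Rps2. It was 3.13 for Gm9825, the copy of Rnps1. It was 3.93 for mt-Nd3 and -2.78 for its copy Gm28438. It was -1.73 for Gm10222, the copy of mt-Nd4l, and -0.93 for Gm28437, the copy of mt-Co3. In each of the 8 the WT libraries lay outside the range of the 9 other libraries. All 8 were also called between Phlpp2 KO and WT, and the share of all tested genes with this pattern was not counted.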

How the results depend on the processing

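For Phlpp2 KO against WT, the 20 calls (10 higher, 10 lower) became 316 (261 and 55) with DESeq2, 13 (5 and 8) with limma-voom, 110 (82 and 28) without the filter, 14 with 6 higher at a mean of at least 1 CPM, 2 (2 and 0) among protein-coding nuclear genes and 0 (0 and 0) with copies summed. Leaving out 1 of the 6 compared samples gave 9 to 22 calls, 5 to 15 higher and 4 to 7 lower. For Phlpp1/2 KO against Phlpp1 KO, the 2 calls became 20 with DESeq2, 14 without the filter, 1 with these genotypes alone and 2 to 4 with 1 sample left out. The difference, 8 calls, became 635 with DESeq2, 183 without the filter, 0 among protein-coding nuclear genes, 4 without the 2 libraries low in Xist, 0 with copies summed and 5 to 1196 with 1 sample left out, the highest without Phlpp1/2 KO 3 and 71 without Phlpp2 KO 2. Leaving out 1 of the 6 other samples, which changes the shared estimate of the spread, gave 13 (5 higher, 8 lower, without Phlpp1 KO 3) to 159 calls (139 higher, 20 lower, without Phlpp1/2 KO 3) for Phlpp2 KO against WT. The cause was not tested.

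No pairing of samples by replicate number is given in the labels, and the main fit used none. Correlations of same-numbered deviations were 0.08, 0.16 and 0.14, and those of unlike numbers ran from -0.15 to 0.0069. With a replicate block the counts were 84 (71 higher, 13 lower), and 308 for the difference. Each sample correlated best with its own number, a hint from the data and not from the design.

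With 1 sample left out in turn, the log2 fold changes of these uncalled genes took both signs: Postn -0.15 to 0.93, Sox9 -0.35 to 0.036, Col2a1 -0.28 to 0.010, Phlpp1 -0.0094 to 0.16, Pth1r -0.29 to 0.026 and Runx2 -0.13 to 0.090.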
